A study of Mus musculus with 8 samples.

Results

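The stimulated control line of the study, EL4 cells labelled GFP + Plum, is described here from its 2 RNA-seq libraries, of 8 in the series. The libraries were chosen by label alone. Estimated counts and TPM (a transcript level corrected for transcript length and library size) were summed over the transcripts of each gene, and genes were ranked by their mean TPM over the 2 libraries. EL4 is a T lymphoblast line from a C57BL/6 mouse lymphoma. All lines of the series carry a pair of retroviral constructs. The control line carries the fluorescent proteins GFP and Plum and no ectopic transcription factor, T-bet + Plum cells express T-bet, GFP + GATA3 cells express GATA3, and T-bet + GATA3 cells express both. The 2 libraries of each line are separate harvests of the same line. Every library came from cells treated for 4 h with phorbol 12-myristate 13-acetate (PMA, 50 ng/ml) and ionomycin (1 µM), so the levels below are those of stimulated cells, and no untreated library was analysed. As bulk measurements, the values cannot tell fewer expressing cells from less RNA per cell.

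T cells recognise peptides bound to MHC molecules through a T cell receptor made of rearranged alpha and beta chains, which sit in the membrane with the CD3 chains and pass their signal through the kinases Lck and Zap70 and the adaptor Lat. PMA activates protein kinase C and ionomycin raises cytosolic calcium, so that the pair bypasses the receptor and switches on NF-kB, AP-1 and NFAT target genes. GATA3 and T-bet (encoded by Tbx21) are the lineage-determining factors of the helper T cell types TH2 and TH1, respectively.

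The GFP + Plum libraries held 15385166 and 16003519 estimated counts, and the other 6 between 8038565 and 15508697. A count of 3, used as the limit that a count of 0 allows, corresponded to 0.186 and 0.190 CPM (counts scaled to library size with TMM factors), which covers counting error only. Of 21932 protein-coding genes, 9495 reached 1 TPM in both GFP + Plum libraries (43.3%), with a median of 19.0 TPM among them. A further group of 7122 coding genes had no count in either library. Coding genes took 83.3% and 82.8% of counts but 60.4% and 56.0% of TPM, a scale on which very short transcripts reach high values from few reads. The genes with the highest TPM were the lincRNA RP23-81C12.3 (Gm42418 in Gencode M21), at 49589 and 55844 TPM, and Mir6236, at 43339 and 49128 TPM. Their values did not come from few reads. RP23-81C12.3 had 1221100 and 1508600 counts and Mir6236 had 36002 and 44676. Which RNA these reads came from was not tested, so the values may not be levels of these genes. Gm24245, Gm24270 and Gm23935 had identical values of 16324 and 19373 TPM, so these loci cannot be told apart here.

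The T cell receptor genes were dominated by single segments, most clearly at the beta locus. Trbv15 took 99.4% of the counts on 35 beta variable segments in replicate 1 (4875 of 4903, 95% Wilson interval 99.2 to 99.6) and 99.1% in replicate 2 (4268 of 4307, 98.8 to 99.3). Trbj2-3 took 79.7% and 77.3% of the counts on 14 beta joining segments, and Trbc2 took 99.9% of the constant-region counts in both. At the alpha locus, Trav13n-4 held 93.9% and 96.4% of counts on 130 variable segments (478 of 509 and 385 of 399), and Traj45 held 43.8% and 52.2% of the joining-segment counts (78 of 178, interval 36.7 to 51.2, and 94 of 180, 45.0 to 59.4). No other member of the Trav13 family, whose close copies can share reads, had more than 1 count in either library. The same segments led in 8 of 8 libraries: over all lines the share of Trbv15 lay between 99.1% and 99.9%, that of Trbj2-3 between 77.2% and 84.4%, that of Trav13n-4 between 91.4% and 96.4%, and that of Traj45 between 39.5% and 55.8%. These segments were picked after their values were seen, and the shares are descriptions.

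The germline sequences of these 4 segments (Gencode M21 transcripts, GRCm38) are shown because they mark the receptor of this line. For the V segments the last 60 bases are given, with the codon of the conserved cysteine in capitals (TGT followed by GCC or GCT, searched on the transcript strand and present in the last 60 bases of 60.0% of 175 V transcripts). For the J segments the whole segment is given, with the Phe-Gly-X-Gly codons in capitals, which 82.8% of 64 J transcripts hold. They are reference sequences and not reads of the junction itself.
Trbv15 (chr6:41141188-41141658, plus strand): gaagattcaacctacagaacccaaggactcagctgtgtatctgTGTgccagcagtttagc
Trbj2-3 (chr6:41543223-41543271, plus strand): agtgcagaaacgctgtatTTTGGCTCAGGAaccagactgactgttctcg
Trav13n-4 (chr14:53362267-53364106, plus strand): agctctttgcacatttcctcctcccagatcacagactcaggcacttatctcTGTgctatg
Traj45 (chr14:54172828-54172890, plus strand): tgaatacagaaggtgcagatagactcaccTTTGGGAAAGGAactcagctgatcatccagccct

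Gamma-chain constant genes were also transcribed. Tcrg-C2 stood at 60.0 and 54.6 TPM, Tcrg-C4 at 32.5 and 25.0 TPM and Tcrg-C1 at 8.94 and 8.14 TPM, and the split of reads between these near copies is uncertain. The delta constant gene Trdc had 0 and 1 count, which is within the limit of 3 counts. Trbc1, the other beta constant gene, had 10 and 12 counts against 18438 and 13629 for Trbc2. At 49 bases, Trbj2-3 reached 13043 and 8339 TPM from 1417 and 1019 counts, a level that reflects its length.

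Of the 8 genes for receptor constant regions and CD3 chains, 6 were at or above 1 TPM in both libraries. Cd3e (chr9:44998740-45009627, minus strand), the epsilon chain, stood at 88.9 and 112 TPM, Cd3d at 157 and 120 TPM and Cd3g at 89.2 and 92.3 TPM. Trac and Trbc2, the alpha and beta constant genes, reached 260 and 221 TPM and 2124 and 1432 TPM. The exception among the CD3 genes was Cd247, which encodes the zeta chain that carries most of the signalling motifs of the complex. It had 0 and 2 counts, at or under 3 counts in each library.

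The surface identity genes gave a mixed picture, with 10 of 15 at 1 TPM or more in both libraries. Ptprc (CD45), the phosphatase of all white blood cells, stood at 439 and 411 TPM, and the adhesion receptor Cd44 at 238 and 198 TPM. Thy1 (chr9:44043384-44048579, plus strand), the classical surface marker of mouse T cells, was at 119 TPM in replicate 1 and 261 TPM in replicate 2, a 2.19-fold difference. Cd27, Cd5 and the costimulatory receptor Cd28 were at 110 and 124, 71.6 and 67.8, and 27.9 and 23.4 TPM. The adhesion molecule Cd2 was low at 1.69 and 1.57 TPM. Neither co-receptor was expressed at 1 TPM: Cd4 stood at 0.235 and 0.379 TPM (10 and 9 counts), Cd8a at 0.0501 and 0.0900 TPM and Cd8b1 had no count.

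Components of the proximal signalling chain were nearly complete, with 15 of 16 genes at 1 TPM or more in both libraries. The adaptor Lat was highest at 451 and 351 TPM, and the inhibitory kinase Csk was at 122 and 113 TPM. Zap70 was at 105 and 92.0 TPM, and Lck was lower at 34.1 and 49.7 TPM. The gene below the threshold was Prkcq, which encodes the protein kinase C isoform that links the receptor to NF-kB in T cells. It stood at 0.321 and 0.314 TPM (18 and 19 counts), whereas its downstream partners Bcl10 and Malt1 were at 30.8 and 36.6 and at 37.6 and 38.4 TPM.

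**Figure D1:**
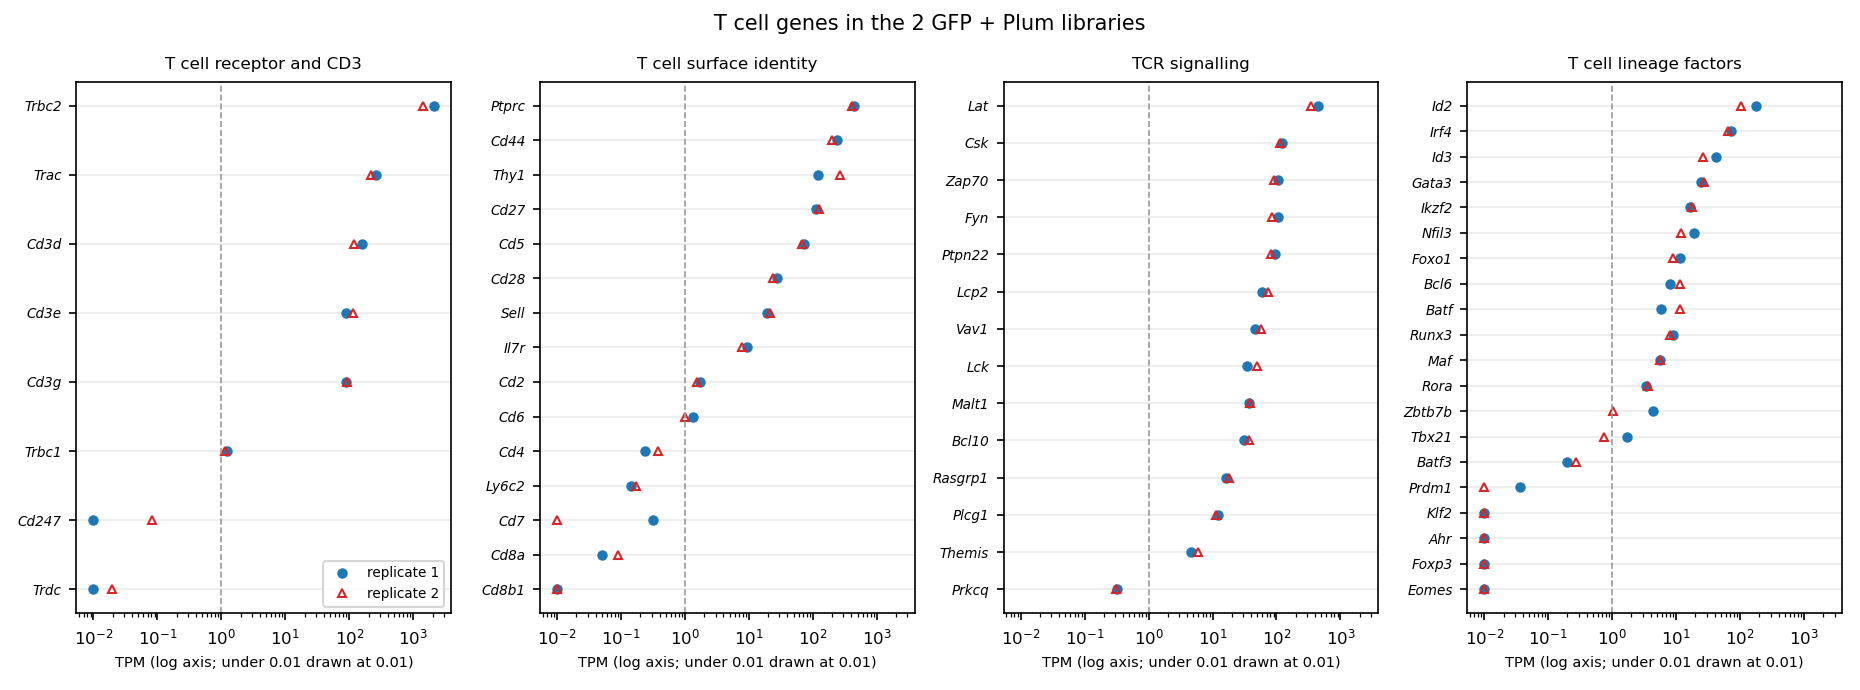
TPM (log axis) of the genes for the receptor and CD3 chains, surface identity, TCR signalling and T cell lineage factors, with replicate 1 as filled circles and replicate 2 as open triangles, the dashed line at 1 TPM and values under 0.01 drawn at 0.01. In the first panel Cd247 and Trdc lie far below the other genes, and Prkcq is the only one of the 14 signalling genes drawn that lies left of the line.

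Genes of thymocyte development and the Notch pathway were split, with 12 of 23 at 1 TPM or more. The zinc-finger factor Ikzf1 (Ikaros) stood at 265 and 266 TPM and the HMG-box factor Lef1 at 115 and 121 TPM. Its relative Tcf7 was at 16.7 and 41.2 TPM, 2.42-fold higher in replicate 2. Rag1 and Rag2, the recombinase genes of developing lymphocytes, and the chromatin organiser Satb1 had no count in either library. Notch3 also had no count, Notch1 stood at 0.144 and 0.0459 TPM, and the Notch target Hes1 at 0.751 and 0.793 TPM. Dntt, the terminal transferase of developing lymphocytes, was detected at 10.0 and 3.95 TPM.

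Among the factors that set T cell lineages, 14 of 21 were at 1 TPM or more in both libraries. Gata3 (chr2:9857078-9890034, minus strand) was endogenously expressed in this line, at 24.8 and 27.6 TPM. Tbx21 was at 1.72 and 0.755 TPM (58 and 28 counts). The inhibitor of E proteins Id2 was the highest of the list at 180 and 102 TPM, followed by Irf4, a factor of activated lymphocytes, at 72.9 and 65.2 TPM, and Id3 at 42.5 and 26.8 TPM. Maf, a factor of several helper T cell lineages, stood at 5.65 and 5.51 TPM. Foxp3 of regulatory T cells, the T-box gene Eomes, Ahr and Klf2 had no count in either library.

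Most activation factors were present, with 24 of 30 genes at 1 TPM or more. The highest were the phosphatase genes Dusp2, at 293 and 199 TPM, and Dusp6, at 160 and 206 TPM, and the NF-kB gene Nfkb1, at 235 and 241 TPM. Nfkb2 stood at 94.1 and 109 TPM and Myc at 100 and 69.1 TPM. The orphan receptor gene Nr4a1 was 2.17-fold higher in replicate 2, at 60.8 and 133 TPM, while its relative Nr4a3 was at 20.7 and 22.2 TPM. Egr2 reached 42.7 and 47.7 TPM, but Egr3 only 0.129 and 0.0910 TPM. Of the AP-1 genes, Junb and Jund were at 39.1 and 37.2 and at 34.9 and 37.6 TPM, whereas Fos and Jun stood at 1.65 and 3.27 and at 1.10 and 0.689 TPM. Cells were sampled at a single time, 4 h, so no course over time can be read from these levels.

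Of 38 cytokine genes, 15 were at 1 TPM or more in both libraries (39.5%, near the 43.3% of all coding genes) and 13 at or under 3 counts in both. Il2 (chr3:37120523-37125959, minus strand), the T cell growth factor, stood at 178 and 171 TPM, at the 97.7th percentile of coding genes. Tnf was at 242 and 206 TPM, Tgfb1 at 158 and 189 TPM, and Tnfsf11, which encodes RANKL, at 127 and 154 TPM. The TH17 cytokine gene Il17f reached 114 and 76.9 TPM, while Il17a, its close relative, stood at 0.390 and 0.178 TPM. Csf2 and Il3, the genes of GM-CSF and IL-3, were at 84.7 and 37.1 and at 64.1 and 39.9 TPM, and Lta at 105 and 76.9 TPM.

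The signature cytokines of TH2 and TH1 cells were low or at the limit. Il4 and Il13 had no count in either library. Il5 had 26 counts in replicate 1 and none in replicate 2. Ifng, the signature cytokine of TH1 cells, had 3 and 11 counts (0.189 and 1.49 TPM). Il6, Il21, Il1b and Il31 also had no count, and Cd40lg, the helper ligand for B cells, had 0 and 3 counts.

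Of 22 chemokine genes, 9 were at 1 TPM or more in both libraries. Ccl1 was highest by far, at 1210.1 and 764 TPM, and was 92nd among coding genes by mean TPM. Ccl3 and Ccl4, chemokines of inflammation, were at 125 and 171 and at 50.0 and 104 TPM, and Ccl5 at 88.8 and 66.7 TPM. Ccl22 differed most between the libraries, at 46.4 and 8.71 TPM, 5.10-fold higher in replicate 1. Chemokines of stromal and myeloid cells such as Ccl2, Cxcl1, Cxcl2, Cxcl12 and Cxcl16 had no count.

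Among cytokine receptors, 21 of 31 were at 1 TPM or more. The common gamma chain Il2rg stood at 130 and 120 TPM. Il2ra, the alpha chain of the high-affinity IL-2 receptor, was at 55.4 and 15.6 TPM, 3.48-fold higher in replicate 1, and Il9r at 50.2 and 12.1 TPM, 4.03-fold higher in replicate 1. Il10ra, Il12rb2, Il13ra1 and Csf2rb were at or near 0. Of 17 chemokine receptors, 7 were at 1 TPM or more, led by Cxcr5, the receptor of follicular helper cells, at 54.5 and 68.9 TPM. Cxcr3 and Cxcr6 were at 30.6 and 9.34 and at 30.1 and 9.38 TPM, so that replicate 1 was 3.16-fold and 3.09-fold higher. S1pr1 and Ccr6 had no count.

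Costimulatory and inhibitory receptors were at 1 TPM or more in 16 of 26 cases. Pdcd1, which encodes the inhibitory receptor PD-1, was highest at 196 and 210 TPM, and its ligand gene Cd274 (PD-L1) was at 82.7 and 71.9 TPM. The early activation antigen Cd69 stood at 140 and 156 TPM, and Tnfrsf9 (4-1BB) at 91.7 and 36.5 TPM. In contrast, Ctla4 stood at 0 and 0.0350 TPM, Icos at 0.0225 and 0 TPM, Lag3 at 0.505 and 0.0342 TPM, and Cd200 had no count.

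**Figure D2:**
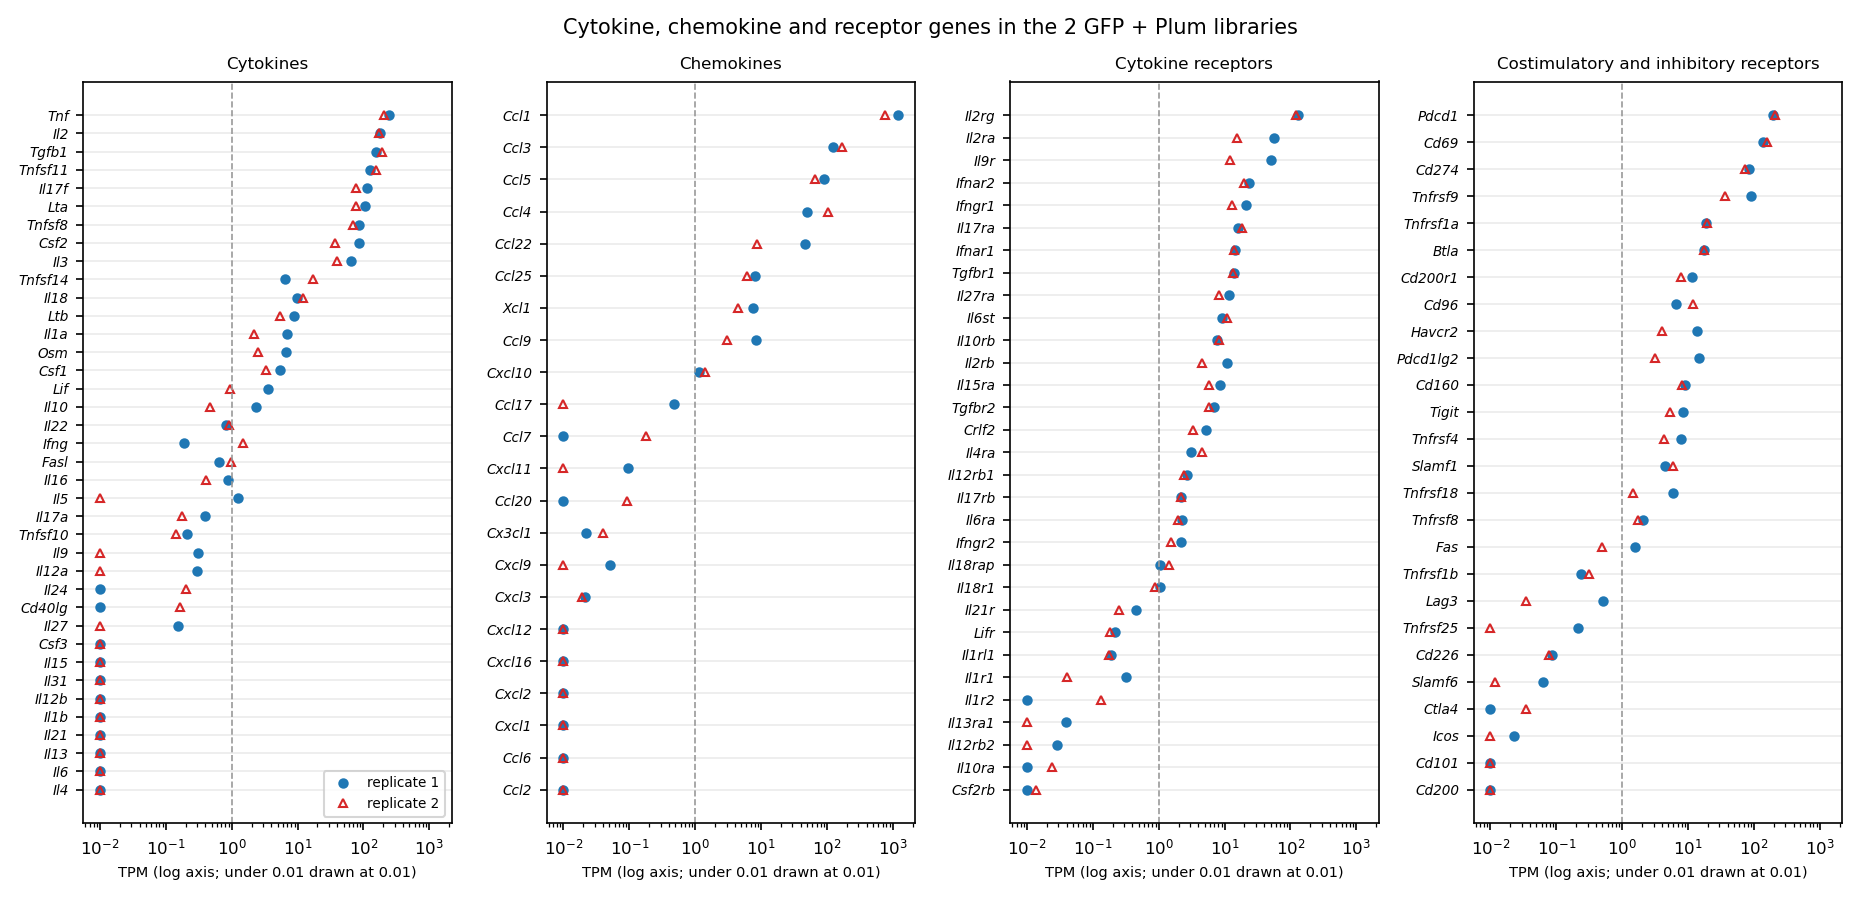
TPM (log axis) of cytokine, chemokine, cytokine receptor and costimulatory or inhibitory receptor genes in replicate 1 (filled circles) and replicate 2 (open triangles), with the dashed line at 1 TPM and values under 0.01 drawn at 0.01. Tnf, Il2, Ccl1, Il2rg and Pdcd1 head their panels, Il4, Il13 and Il21 lie at the left edge, and Ccl22, Il2ra and Il9r show wide gaps between the libraries.

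Metabolic genes were almost all expressed: 21 of 23 for glucose uptake and glycolysis, 16 of 17 for the tricarboxylic acid cycle, 25 of 25 for amino acid and nucleotide supply and 24 of 24 for cholesterol and fatty acid synthesis. The glycolytic genes were among the highest coding genes, with Pkm (pyruvate kinase) at 3061 and 2247 TPM, Gapdh at 2598 and 2169 TPM and Eno1 (enolase) at 1671 and 1048 TPM. Glucose uptake was represented mainly by the transporter Slc2a3, at 1162 and 1114 TPM, against 121 and 49.1 TPM for Slc2a1. Some enzyme isoforms were missing. Pklr and Ldhb, and the mitochondrial isocitrate dehydrogenase Idh2, had no count, while Ldha was at 839 and 573 TPM and Idh3a at 132 and 159 TPM.

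Odc1, the rate-limiting enzyme of polyamine synthesis, stood at 3249 and 3229 TPM and was 9th among coding genes. The serine synthesis enzymes Phgdh and Psat1 were at 366 and 359 and at 442 and 305 TPM, and asparagine synthetase (Asns) at 396 and 370 TPM. The amino acid transporter subunit Slc3a2 was at 371 and 264 TPM and Slc7a5 at 173 and 153 TPM. Of the lipid genes, Acly, which supplies cytosolic acetyl-CoA, was at 179 and 152 TPM and the desaturase Scd2 at 142 and 107 TPM.

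The respiratory chain was transcribed from both genomes. All 13 mitochondrially encoded protein genes were at 1 TPM or more, with mt-Co2 the highest coding gene of all at 8034 and 9276 TPM, and 76 of 84 nuclear oxidative phosphorylation genes reached 1 TPM. Ribosomal protein genes reached it in 81 of 84 cases and had a median of 1031 TPM. The other leading coding genes included the elongation factor Eef1a1, at 7732 and 6498 TPM, Rps29, at 6396 and 4858 TPM, and cyclophilin A (Ppia), at 3606 and 3304 TPM. The leucyl-tRNA synthetase gene Lars2 was assigned 7156 and 6473 TPM. It had 368940 and 366250 counts, against 129730 and 130220 for Eef1a1. Whether the reads assigned to Lars2 came from its messenger RNA was not tested. Iron storage (Ftl1, 2463 and 2833 TPM), chaperone (Hspa8, 2227 and 2781 TPM, and Hspa5, 2807 and 1794 TPM) and redox genes (Txn1, 1553 and 1338 TPM, and Prdx1, 1295 and 1343 TPM) also ranked near the top.

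Cell cycle genes were expressed in 29 of 30 cases. Pcna, the replication clamp, stood at 327 and 369 TPM, Cdk4 at 268 and 267 TPM, Top2a at 212 and 233 TPM and Cdk1 at 209 and 240 TPM. The exception was Cdkn2a, a tumour suppressor gene, which had no count in either library, whereas its neighbour Cdkn2b was at 25.8 and 42.1 TPM. Trp53, which encodes p53, was at 79.8 and 98.2 TPM and the p53 target Cdkn1a at 65.9 and 58.5 TPM. Of the apoptosis genes, Bax, Mcl1 and Bcl2l1 were at 216 and 229, 191 and 181, and 169 and 114 TPM. All 12 genes of MHC class I presentation were at 1 TPM or more, led by B2m at 1898 and 1559 TPM and H2-K1 at 752 and 797 TPM. H2-K1 and H2-D1 are close relatives, and their counts depend on how shared reads were split.

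Cytotoxic effector genes were mostly below 1 TPM, with 3 of 13 at 1 TPM or more. These were Srgn, which encodes the granule proteoglycan serglycin, at 156 and 79.6 TPM, Gzma (granzyme A) at 45.4 and 56.0 TPM and the granzyme inhibitor Serpinb9 at 4.00 and 2.54 TPM. Gzmb stood at 0.262 and 0.0477 TPM, and the pore-forming Prf1 at 0.0297 and 0.0542 TPM.

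Marker lists of other cell types were mostly at or near 0, with a few genes standing high. Between 1 and 2 members of each list of 8 to 12 genes were at 1 TPM or more. For B cells, the summed level of the list was 132 and 151 TPM, of which Ighm, the IgM heavy chain constant gene, gave 130 and 150 TPM, while the defining marker Cd79b had no count and Cd79a stood at 0.0617 and 0.169 TPM. For mast cells and erythroid cells, Cpa3, a protease of mast cells, gave 75.4 and 158 TPM of a sum of 75.6 and 158 TPM, and Kit, Fcer1a, Ms4a2 and Gata1 had no count. For NK cells, Fcer1g, the Fc receptor gamma chain, gave 75.2 and 43.5 TPM of 75.3 and 43.6 TPM, and Ncr1, Tyrobp and Klrb1c had no count.

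The myeloid list summed to 5.0 and 2.67 TPM with Csf1r, Adgre1 and Spi1 at 0, and only Cd68 passed, at 3.99 and 1.93 TPM. The dendritic cell list summed to 12.0 and 10.2 TPM, of which Cd74 gave 9.61 and 6.52 TPM. The list of fibroblast, epithelial and endothelial markers summed to 6.89 and 10.8 TPM, with Pdgfra at 3.48 and 3.31 TPM, Pecam1 at 3.06 and 7.22 TPM and Epcam, Dcn and Cdh5 at 0. For comparison, the 8 receptor and CD3 genes summed to 2720.0 and 1979 TPM. Cd3e, Thy1, Gata3 and Il2 were all expressed, which meets the T cell label, while Ighm, Cpa3 and Fcer1g stood high without the defining markers of the cells they are known from. Their source was not tested.

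**Figure D3:**
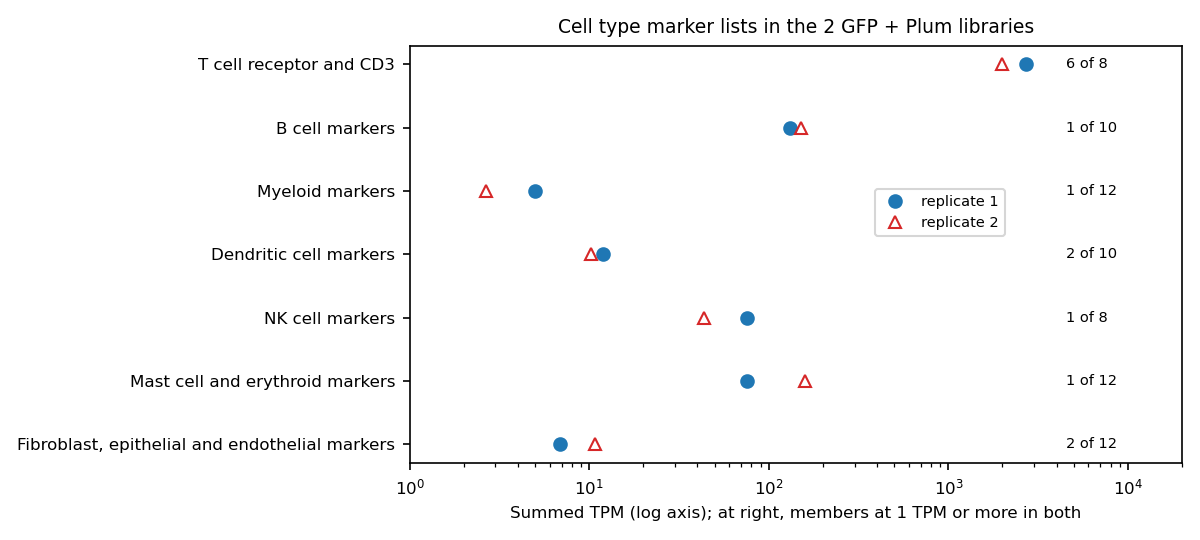
Summed TPM (log axis) of the receptor and CD3 genes and of 6 marker lists of other cell types in replicate 1 (filled circles) and replicate 2 (open triangles), with the number of members at 1 TPM or more in both libraries at the right. The receptor and CD3 genes sum to 2720.0 and 1979 TPM, and the myeloid list is lowest at 5.0 and 2.67 TPM.

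The 2 libraries agreed closely over most genes but differed in some gene groups. Over 13092 genes with a mean of at least 1 TPM, Pearson's r of log2(TPM + 0.5) was 0.94 and Spearman's rho 0.95, values across genes, which are not independent replicates and share a library. In these genes 986 were over 2-fold higher in replicate 1 (7.53%) and 400 in replicate 2 (3.06%). The chi-square of the counts per degree of freedom was 28.3, which only checks, against counting noise, that the libraries are not copies of each other. The median log2 ratio of replicate 2 over replicate 1 was -0.15 in TPM and 0.0066 in CPM on TMM-scaled library sizes, and ratios in TPM are read against that shift. The share of TPM on snoRNA genes was 5.91% and 9.15% in the 2 libraries, and on coding genes 60.4% and 56.0%. With 1 library against 1, the differences below have no test.

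Glycolysis genes were mostly higher in replicate 1. Of 21 with a ratio, 18 were so in TPM, against 65.1% of all genes, and 15 in CPM, against 49.0%. Their median log2 ratio was -0.67 in TPM and -0.50 in CPM. Over 2-fold differences were seen for 5 of them (Aldoc, Slc16a3, Slc2a1, Pdk1 and Pfkl). Slc16a3, a lactate exporter, was at 28.2 and 7.92 TPM and Pdk1, the kinase that inhibits pyruvate dehydrogenase, at 41.5 and 17.4 TPM. Bnip3, a mitophagy gene induced by low oxygen, was at 45.9 and 6.79 TPM. Of coding genes with a mean of at least 5 TPM, it was among the 4 that differed most in this direction. The difference went the same way in the other lines, where Bnip3 was at 36.2 and 9.09 CPM in T-bet + Plum, at 85.2 and 11.8 CPM for GFP + GATA3 and 20.8 and 9.04 CPM in T-bet + GATA3, against 66.0 and 10.8 CPM in GFP + Plum. The glycolysis list likewise had a negative median in each other line (-0.17 in T-bet + Plum, -0.49 in GFP + GATA3 and -0.052 in T-bet + GATA3, in CPM), so neither is particular to the control libraries. Of 17 cytokine genes 13 were higher in replicate 1 in TPM (76.5%, against 65.1% of all genes), with a median of -0.56 in TPM and -0.37 in CPM.

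Other groups were higher in replicate 2, as were 34.9% of all genes in TPM and 51.0% in CPM. Cell cycle genes were so in 24 of 29 cases in TPM and 27 in CPM (median log2 ratio 0.28 in TPM and 0.45 in CPM), with the replication helicase genes Mcm2 at 61.9 and 100 TPM and Mcm6 at 61.6 and 102 TPM. Tricarboxylic acid cycle genes were higher in 13 of 16 cases in TPM and in all 16 in CPM (0.21 and 0.38), among them Suclg2 at 45.1 and 77.4 TPM. MHC class I genes were higher in 9 of 12 in TPM and 10 in CPM (0.30 and 0.43), including the immunoproteasome genes Psmb8, at 40.3 and 70.1 TPM, and Psmb9, at 13.5 and 31.4 TPM. Igfbp6, which encodes a binding protein of insulin-like growth factors, was at 22.05 and 145 TPM. Of coding genes with a mean of at least 5 TPM, it had the largest ratio in this direction. In CPM the median ratio of the cell cycle list was also positive in GFP + GATA3 (0.19) and T-bet + GATA3 (0.77) but negative in T-bet + Plum (-0.23). That of the tricarboxylic acid cycle list was 0.12, 0.32 and -0.11 in the same order. For the MHC class I list it was 0.19, 0.32 and 0.033 in this order, so that direction is not particular to the control libraries. Ribosomal protein genes were higher in replicate 1 in 71 of 81 cases in TPM and 53 in CPM, and lipid synthesis genes in 18 and 11 of 24, by small amounts. The lists of ribosomal protein genes (median -0.22 in TPM and -0.059 in CPM) and of cholesterol and fatty acid synthesis (-0.19 and 0.047) lay close to the medians of all genes, and the direction of the latter depends on the scale.

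**Figure D4:**
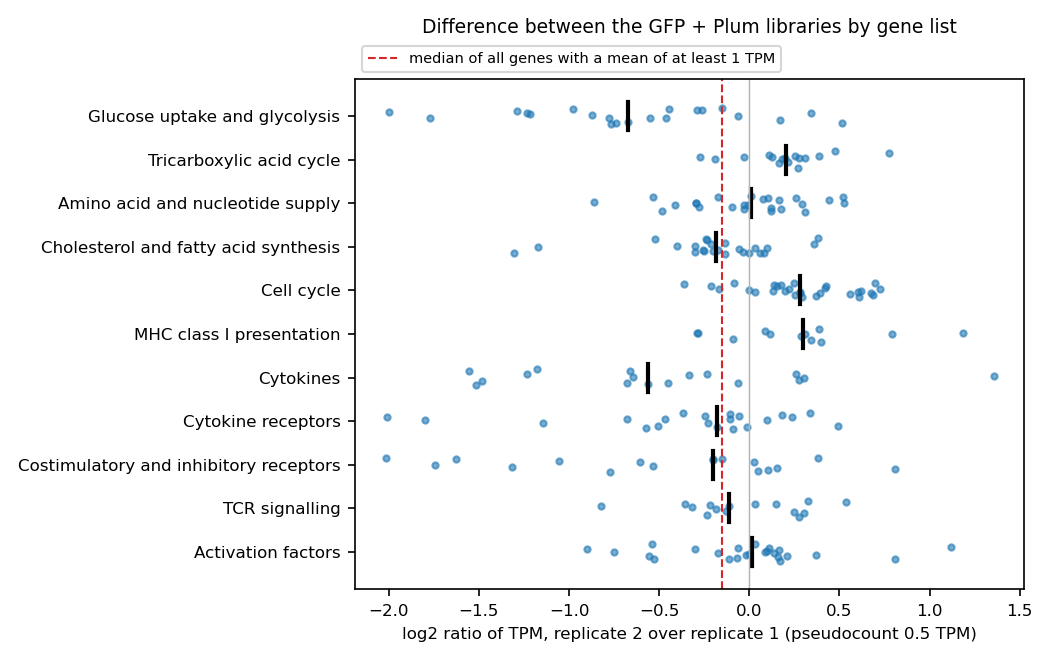
Log2 ratio of TPM in replicate 2 over replicate 1 (pseudocount 0.5 TPM) for the members of 11 gene lists with a mean of at least 1 TPM, with the median of each list as a black bar and the median of all genes (-0.15) as a dashed line. Glycolysis lies furthest left at -0.67, and the cell cycle and MHC class I lists lie to the right at 0.28 and 0.30.

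To ask where the control line differs from the lines that carry T-bet or GATA3, it was compared with the mean of the other 3 lines. The ectopic genes followed the labels. Tbx21 stood at 3.59 and 1.78 CPM in GFP + Plum, with 2.01 and 2.22 CPM for GFP + GATA3, against 129 and 159 CPM in T-bet + Plum and 135 and 160.1 CPM in T-bet + GATA3. Gata3 was at 39.8 and 53.3 CPM in GFP + Plum and 25.8 and 34.9 CPM in T-bet + Plum, against 283 and 326 CPM in GFP + GATA3 cells, with 204 and 165 CPM for T-bet + GATA3. Gata3 passed the adjusted p but not the fold threshold against the mean of the other lines (log2 fold change -1.36, SE 0.18, adjusted p = 0.0086 by edgeR). By edgeR's quasi-likelihood test with Benjamini-Hochberg adjustment (calls at an FDR up to 0.05 with log2 fold changes past 1.5 in size), 56 of 14791 genes were higher in GFP + Plum (0.379%) and 106 lower (0.717%). The count depended on single libraries and fell to 95 without T-bet + Plum replicate 2 and to 91 without GFP + GATA3 replicate 2.

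The 27 list genes among them were lower in 21 cases and higher in 6. The comparison averages unlike lines. Against GFP + GATA3 alone 3 genes were called (0.0203% of those tested, with 547 at an unadjusted p under 0.05), and none of the 27 was among them. Against T-bet + Plum alone 446 were called (3.02%) and against T-bet + GATA3 alone 386 (2.61%), and both sets included all 27. T-bet + Plum and T-bet + GATA3 are called the T-bet lines below. These comparisons share the GFP + Plum libraries. The T-bet lines also make up most of the mean that picked the 27 genes. Calls of these genes against each T-bet line were therefore largely fixed, and they include Tbx21, the ectopic gene itself. The 3 genes were Gata3 itself, Mrgprx1, a Mas-related G-protein coupled receptor, and the surface antigen gene Ly6a, which stood at 1.86 and 1.78 CPM in GFP + Plum, with 10.1 and 11.2 CPM for GFP + GATA3.

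Cytotoxic genes were the list with the most calls, 6 of 8 tested members being lower in GFP + Plum. The list median log2 fold change was -3.47, against 0.0050 over all genes. Here and for the lists below, medians cover tested members only, in this case 8 of 13. Nkg7 and Gzmk, at or under 3 counts in both GFP + Plum libraries, passed the filter only through the T-bet lines. The same held for Ctsw (7 and 4 counts in GFP + Plum) and Klrd1 (3 and 5 counts). The median and the share of calls are therefore largely set by the filter. Only 1 of these calls was left without GFP + GATA3 replicate 2, and 4 without either GFP + Plum library. Gzma was at 31.7 and 44.0 CPM in GFP + Plum, with 73.6 and 80.8 CPM for GFP + GATA3, against 138 and 159 CPM in T-bet + Plum and 336 and 352 CPM in T-bet + GATA3. The control libraries were below all 6 others, and the log2 fold change was -2.06 (SE 0.15, adjusted p = 0.00084 by edgeR). Nkg7, a granule protein gene, had 0 and 1 count in GFP + Plum and stood at 0.0957 and 0.254 CPM in GFP + GATA3. Its mean was 252-fold (T-bet + Plum) and 86.4-fold (T-bet + GATA3) the level of 3 counts in GFP + Plum. Gzmk had 1 and 2 counts in GFP + Plum and was at 0 and 0.254 CPM for GFP + GATA3. Its means of 54.5 and 43.1 CPM in the T-bet lines were 290.0-fold and 230-fold the level of 3 counts. Ctsw, Klrd1 and Klrg1 were the other members called lower. Ctsw, at 0.433 and 0.254 CPM in GFP + Plum, was not lower than in GFP + GATA3 (0.191 and 0.254 CPM, log2 fold change 0.57 against that line alone). The calls of Nkg7, Gzmk and Ctsw were lost without GFP + GATA3 replicate 2, that of Klrd1 also without either GFP + Plum library, and that of Klrg1 in 6 of 8 fits that left out a library. In these fits the log2 fold change of Klrg1 lay between -2.39 and -2.04.

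Ifng, at 0.186 and 0.698 CPM in GFP + Plum, with 0.574 and 0.507 CPM for GFP + GATA3, stood at 3970 and 2788 CPM in T-bet + Plum and 3476 and 3014 CPM in T-bet + GATA3. Its log2 fold change in GFP + Plum was -8.66 (SE 0.52, adjusted p = 0.00042 by edgeR). Ifng passed the filter only through the T-bet lines, so its call is partly set by the filter. Against GFP + GATA3 alone its log2 fold change was -0.28, without a call. The chemokine genes Ccl3, Ccl4 and Xcl1 were lower in the control line, 3 of 10 tested members of their list, whose median log2 fold change was -1.84. Xcl1 was at 2.91 and 1.97 CPM in GFP + Plum, with 0.574 and 0.571 CPM for GFP + GATA3, against 645 and 524 CPM in T-bet + Plum and 309 and 247 CPM in T-bet + GATA3. For these 3 chemokines the control libraries lay between GFP + GATA3 and the T-bet lines, so the direction against GFP + GATA3 alone was the opposite, although without a call there.

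The receptor genes called lower included Ccr8 (2 of 9 chemokine receptors tested, median log2 fold change of the list -1.39), Cd160, Tnfrsf4 and Tnfrsf18 (3 of 20 costimulatory and inhibitory receptors, median -0.41) and Il18r1 and Il1rl1 (2 of 25 cytokine receptors, median -0.18). In the 8 fits that each left out a library, the calls of Tnfrsf4 (log2 fold change between -2.50 and -1.87) and Il18r1 (-2.43 to -1.87) stood only without a T-bet + GATA3 library, that of Il1rl1 (-2.32 to -2.03) in 3 fits, and that of Tnfrsf18 in all but the fit without GFP + GATA3 replicate 2. Against GFP + GATA3 alone the direction was the opposite, without a call, for Il18r1 (log2 fold change 2.04), Tnfrsf4 (0.51), Cd160 (0.48), Tnfrsf18 (0.38) and Il1rl1 (0.23). Il18r1 was at 2.97 and 2.16 CPM in GFP + Plum, with 0.766 and 0.507 CPM for GFP + GATA3, and between 19.7 and 72.6 CPM in the T-bet lines. Cd2 was at 1.55 and 1.65 CPM in GFP + Plum and between 1.97 and 19.2 CPM elsewhere, without overlap. Fasl, the death ligand gene, and the NK receptor gene Klre1, lost in 3 of 8 such fits, completed the group. Klre1, at 3 and 2 counts in GFP + Plum, passed the filter only through the T-bet lines. Fasl too was slightly higher than in GFP + GATA3 alone (0.30, not called), at 1.05 and 1.01 CPM against 0.861 and 0.824 CPM.

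The genes higher in the control line included Il17f, a cytokine gene known from TH17 cells, and Maf. Il17f was at 108 and 82.7 CPM in GFP + Plum, with 45.3 and 32.7 CPM for GFP + GATA3, against 6.35 and 10.1 CPM in T-bet + Plum and 1.51 and 1.66 CPM in T-bet + GATA3. All other libraries were below the control libraries, and the log2 fold change was 3.57 (SE 0.19, adjusted p = 0.00026 by edgeR). Maf was at 28.2 and 30.7 CPM in GFP + Plum, with 32.1 and 39.9 CPM for GFP + GATA3, against between 1.51 and 2.20 CPM in the T-bet lines.

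Cpa3 and Fcer1g, known from mast cells and other innate cells, were higher as well. Cpa3 stood at 89.9 and 212 CPM in GFP + Plum, with 71.1 and 84.0 CPM for GFP + GATA3, against 3.36 to 13.6 CPM in the T-bet lines. Its log2 fold change was 3.31 (SE 0.26, adjusted p = 0.00096 by edgeR). Fcer1g was at 39.2 and 25.4 CPM in GFP + Plum, at 25.9 and 21.9 CPM for GFP + GATA3 and 1.20 to 3.01 CPM in the T-bet lines. Ifngr2, the second chain of the interferon-gamma receptor, was at 6.75 and 4.38 CPM in GFP + Plum against 0.124 to 0.973 CPM in the T-bet lines, but at 6.99 and 14.0 CPM in GFP + GATA3, and its call was lost without GFP + Plum replicate 1 and without either T-bet + Plum library.

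**Figure D5:**
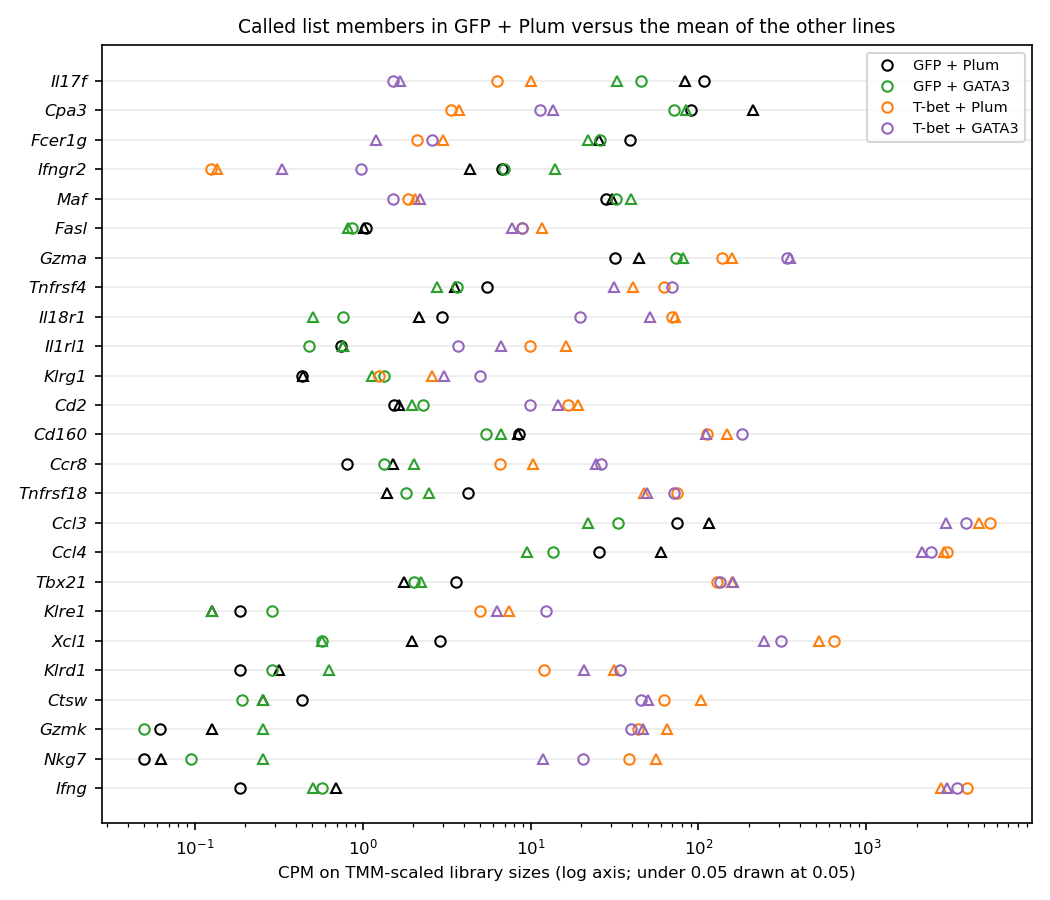
CPM on TMM-scaled library sizes (log axis) of 25 of the 27 list genes called in GFP + Plum against the mean of the other lines, with circles for replicate 1 and triangles for replicate 2 of each line and values under 0.05 drawn at 0.05. For Ifng the GFP + Plum and GFP + GATA3 libraries lie at 0.186 to 0.698 CPM and the T-bet lines at 2788 to 3970 CPM, while Gzma and Klrg1 show narrower gaps.

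Among coding genes outside these lists, those called with the largest fold changes and no overlap were Foxn4, Mrgpra1, Megf10, Elfn2 and Rgs18 on the higher side, beside Il17f. Megf10, a phagocytic receptor of glia, was by far the most abundant of them, at 129 and 57.7 CPM in GFP + Plum, at 57.4 and 45.1 CPM for GFP + GATA3 and 1.60 to 4.65 CPM in the T-bet lines. Foxn4, a forkhead gene of retinal and neural progenitors, was at 5.88 and 3.17 CPM in GFP + Plum, at 1.44 and 0.951 CPM for GFP + GATA3 and at most 0.249 CPM in the T-bet lines. The calls of Elfn2 and Rgs18 rested on at most 27 counts in a GFP + Plum library and were lost in 6 of 8 fits that left out a library. Elfn2 was at 1.1418 CPM in GFP + Plum replicate 2 and 1.1413 CPM in GFP + GATA3 replicate 2. Its lack of overlap therefore separates nothing from GFP + GATA3 (log2 fold change 0.30 against that line alone, not called). On the lower side, beside Nkg7, were Mrgprx1, Tgtp2, RP23-186O3.13, Iigp1 and Slc5a9. Of all 162 called genes, 61 had no overlap. Genes that were not called, such as Eef1a1, Rplp1, Tpt1 and Txn1, also had none. The share over all tested genes is not given here, so the count of 61 is only a description. For Nkg7, Tgtp2 and Iigp1 the lack of overlap with GFP + GATA3 rested on values near 0 and separates nothing there. These genes and Slc5a9 passed the filter only through the T-bet lines. Tgtp2 was at 0.0957 and 0.0634 CPM in GFP + GATA3, within the limit of 3 counts. The interferon-inducible GTPase gene Iigp1 had 2 and 0 counts in GFP + Plum and stood at 0.287 and 0.127 CPM in GFP + GATA3, against 14.6 and 22.9 CPM in T-bet + Plum and 23.6 and 37.0 CPM in T-bet + GATA3. Mrgprx1, Tgtp2 and Slc5a9 had no count in the control libraries. The call of Slc5a9 was lost in 8 of 8 such fits, those of RP23-186O3.13 and Tgtp2 in 6 and 4, those of Mrgprx1 and Mrgpra1 in 2 each, and that of Iigp1 without GFP + GATA3 replicate 1.

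No gene was called in the lists for the receptor and CD3 chains, TCR signalling, thymocyte and Notch genes, activation factors, glycolysis, the tricarboxylic acid cycle, amino acid supply, cholesterol and fatty acid synthesis, the cell cycle, apoptosis, MHC class I, oxidative phosphorylation, mitochondrially encoded proteins or ribosomal proteins. A missed threshold does not show that the lines were alike there. Cd3e had a log2 fold change of -0.18 (SE 0.13, adjusted p = 0.65 by edgeR), Thy1 of 0.41 (SE 0.32, adjusted p = 0.68) and Il2 of -0.33 (SE 0.20, adjusted p = 0.57). For Il2 the lines moved in opposite directions around the control: it was at 165 and 178 CPM in GFP + Plum, at 80.5 and 74.0 CPM for GFP + GATA3, 494 and 307 CPM in T-bet + Plum and 266 and 383 CPM in T-bet + GATA3. The control libraries did not overlap any other line, but Il2 passed neither threshold against GFP + GATA3 (log2 fold change 1.15, adjusted p = 0.45 by edgeR). Against T-bet + Plum it passed the adjusted p alone (-1.22, adjusted p = 0.025).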

How the data were processed

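The paper's methods and the labels describe poly-adenylated RNA from EL4 cells, sequenced as paired-end reads. FastQC and Trim Galore were used by the authors for filtering and trimming, and kallisto for quantification, for which the sources name different Gencode mouse releases. The authors deposited, per library and without pooling, estimated counts, which are not normalized, and TPM, which are scaled to the same total in each library. Their later DESeq2 results were not used.

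Values were summed per gene (54146 genes), and 54079 gene identifiers were found in Gencode M21 (GRCm38). Counts were rounded and analysed with edgeR 4.0.16 in R 4.3.3 (TMM, filterByExpr, quasi-likelihood test, Benjamini-Hochberg adjustment) in a fit of all 8 libraries with 4 lines and 4 residual degrees of freedom, which left 14791 genes. CPM use library sizes scaled by TMM, and each standard error is the size of the log2 fold change over the square root of F. Since the paper calls replicates harvests of the same line on different days, p-values measure the spread between harvests. Levels and differences between the GFP + Plum libraries were described without a test. Intervals of shares are 95% Wilson intervals and cover counting error only. The script was tested on simulated data.

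The control libraries, the 25 gene lists and the comparisons were chosen with earlier results of these data known, and the receptor segments after their values were seen. The other lists (oxidative phosphorylation, mitochondrially encoded and ribosomal protein genes) were taken by symbol. Named were the marker genes, the leading coding genes, up to 6 leading members of each list and members at or under 3 counts, the coding genes that differed most between the libraries, called list members, and the called coding genes with the largest changes and no overlap. The genes that differed most were taken from those with a mean of at least 5 TPM. Further list members are given as examples, chosen after their values were seen. Alternatives included DESeq2 1.42.0, other filters and scalings, a replicate block, other lines as the comparison and each library left out. A few list genes counted in the totals are not reported by name here.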

Additional observations from a re-analysis of the deposited data

How the results depend on the processing

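The number of genes at 1 TPM or more, 12021, lay between 8720 and 13481 under other thresholds or CPM, and between 12544 and 13320 with either GFP + Plum library alone. Of genes over 2-fold apart there were 1386 in TPM, but 652 in CPM, 511 with a mean of at least 5 TPM and 2221 with no minimum. The count of genes called against the mean of the other lines, 162, was 346 at the FDR threshold alone, 425 without a filter, 74 with at least 10 counts in every library, 215 with DESeq2, and 91 to 158 with each library left out. It was 3 against GFP + GATA3 alone, 446 against T-bet + Plum alone and 386 against T-bet + GATA3 alone. With the replicate block 202 genes were called, which included all 162. The labels give only a number to pair the libraries, whose deviations correlated between GFP + Plum and the other lines at 0.059 to 0.30 over 14791 genes. Against GFP + GATA3 alone the log2 fold change took the opposite sign for Ccl3 (1.80), Ccl4 (1.89), Xcl1 (2.07), Il18r1 (2.04), Ctsw (0.57), Tnfrsf4 (0.51), Cd160 (0.48), Tnfrsf18 (0.38), Tbx21 (0.34), Fasl (0.30), Il1rl1 (0.23), Maf (-0.29) and Ifngr2 (-0.92), none of them called there. The cause was not tested. A count of 0 in a GFP + Plum library allows up to 0.190 CPM, and 2 libraries per line limit the precision of every comparison.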
